A study of Rattus norvegicus with 17 samples.

Results

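Expression of 7 marker genes of the hippocampal fields CA1, CA2 and CA4 was followed across 17 rat hippocampi. The members were taken from the marker list that the study compiled for hippocampal regions, and were the genes listed for these fields whose symbol could be paired with an Ensembl identifier in the gene lists supplied with the study. This gave 7 of the 112 markers of the 3 fields, out of 32494 genes listed in the data. Adgrl2 (ENSRNOG00000032660, listed under its older symbol Lphn2) and Mpped1 (ENSRNOG00000010834) were 2 of the 10 CA1 markers. Cacng5 (ENSRNOG00000003288), Dusp5 (ENSRNOG00000014061), Gpr12 (ENSRNOG00000039832) and Rgs14 (ENSRNOG00000015616) were 4 of the 41 CA2 markers, and Ajap1 (ENSRNOG00000050137) was 1 of the 61 CA4 markers. All 7 were expressed and tested. Each of the 7 pairs came from the study's lists of differentially methylated genes, so the members are not a random draw of their fields, and the other markers of these fields were not analysed here.

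The hippocampus is built from fields of excitatory neurons that are wired largely in one direction, from the granule cells of the dentate gyrus through the pyramidal cells of the cornu ammonis (CA) to the subiculum and cortex. CA1 is the main output field and is known for its role in spatial and episodic memory. CA2 is a narrow field known for social memory and for synapses that resist potentiation, and CA4 is the hilus inside the dentate gyrus, where mossy cells lie. Each field has its own set of enriched genes, and such genes are used to judge how much of a field a dissection holds.

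The libraries came from male Sprague Dawley rats of the SAS-SD stock, 1 rat per library, with 5 rats at Site #1 (Legacy), 6 at Site #2 (Trinity) and 6 at Site #3 (UAB). No treatment or genotype was compared. Rats of Sites #1 and #2 came from Charles River at 8.3 weeks of age, were housed singly on LabDiet chow and were killed 18 to 19 days after arrival, with dissection in saline. Rats of Site #3 came from Harlan (Envigo) at 8 weeks, were housed in pairs on an NIH open formula diet and were killed after 27 days, with dissection in bubbled artificial cerebrospinal fluid. At every site the animals were handled daily, decapitated without anesthesia, and the whole hippocampus of both sides was taken. Because vendor, chow, housing, age and buffer changed together between Site #3 and the others, they cannot be told apart, and the question for the members is whether the dissections held the same fields. P values set a difference between sites against the spread between rats of a site. The labels do not give the cage of a rat, so rats of Site #3 that shared a cage were treated as independent.

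The values are on the log2 scale on which the authors deposited them, already normalized between libraries. The depth of each library cannot be read from them, and precision rests on the number of rats. The normalizing step is not named, and whether it shrank differences is not known, so the folds, ranges and intervals given here may understate those of the transcripts. Of the 32494 genes, 9830 were at exactly 0 in every library and 22664 were tested. The sites were compared by limma, with p values adjusted over all 22664 genes by the Benjamini-Hochberg method and a call at an adjusted p under 0.05. A difference is the second site minus the first. Levels are not given per gene length, so a gene is compared with itself between rats and not with another gene. Neurod6, a transcription factor of pyramidal neurons, lay between 13.14 and 13.80 in the 17 libraries, and C1ql2, a dentate granule cell marker, between 11.65 and 12.19. Replicate 1 of Site #3 stood apart in the choroid plexus markers F5 and Aqp1, with a summed level of 12.11 against 6.32 to 6.93 in the other libraries. In a whole tissue, fewer cells of a type and less RNA per cell cannot be told apart.

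Of the 7 members, only Dusp5 passed the test in any comparison, between Site #2 and Site #3, where it was 1.14-fold higher at Site #3. Expression of the other 6 did not pass in any of the 3 pairs of sites. Most of their variation lay between libraries of the same site. With 1 library per rat, the rat and the handling of its sample cannot be told apart. Rgs14 ranged over 1.76-fold between the lowest and highest library, Cacng5 over 1.68-fold and Adgrl2 over 1.55-fold, and the extremes of Rgs14 both came from Site #1. The share of the sum of squares that lay between sites was 55.0% for Dusp5 and 6.09% to 13.8% for the others. The median over the 7 members was 10.2%, and it was 16.1% over 10694 genes whose mean level was 8 or higher.

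**Figure D1:**
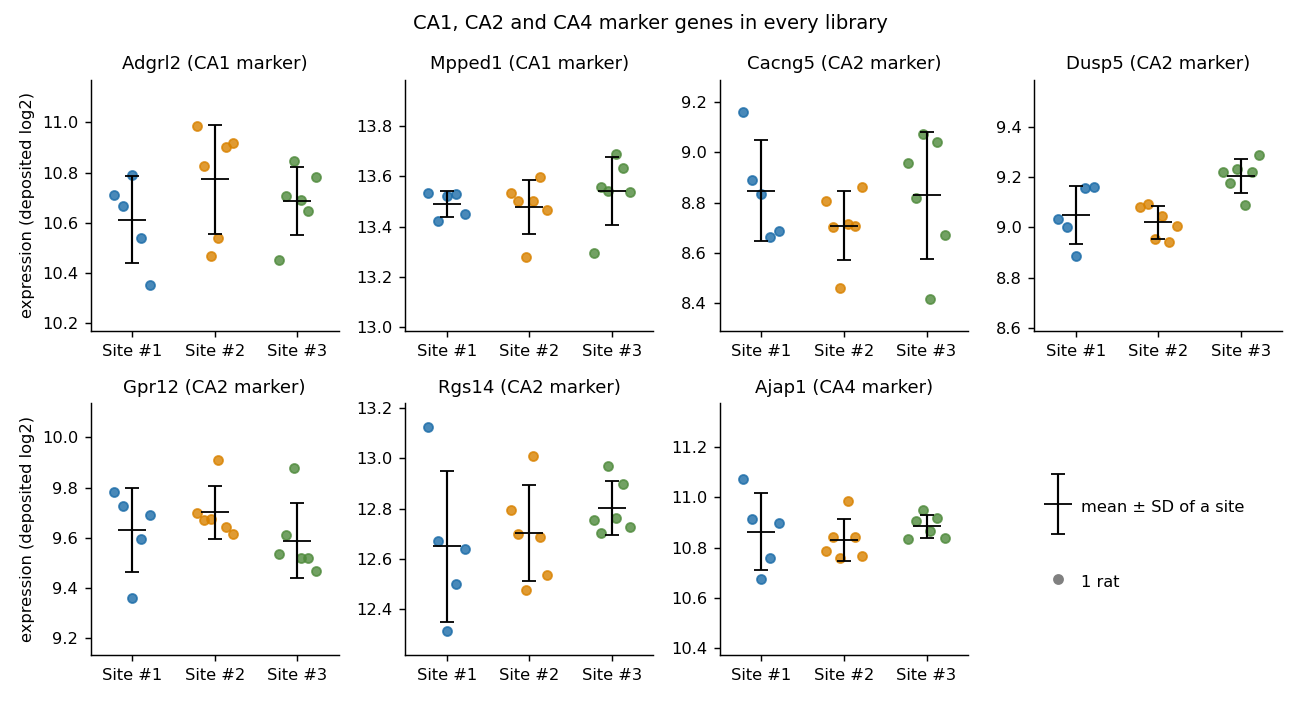
Expression of the 7 members on the deposited log2 scale, 1 panel per gene with an axis span of 1 log2 unit in each. A point is 1 rat, and the bar gives the mean and SD of the site. The libraries of the sites overlap for every member, and Dusp5 has the clearest step, from means of 9.05 and 9.02 to 9.20 at Site #3.

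Dusp5 encodes a nuclear phosphatase that inactivates the MAP kinases ERK1 and ERK2 and is itself induced when ERK is active. At Site #1 its 5 libraries had 9.03, 8.9998, 8.89, 9.16 and 9.16. The 6 libraries of Site #2 ran from 8.94 through a median of 9.02 to 9.09, and those of Site #3 from 9.09 through 9.22 to 9.29. The Site #3 libraries were the high ones, and 5 of the 6 lay above every library of the other 2 sites. The exception was replicate 4 of Site #3, which lay just under the highest library of Site #2 and below 2 of Site #1, so that the sites overlapped.

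The step from Site #2 to Site #3 was 0.19 ± 0.0394 (log2 difference ± SE), a 1.14-fold higher level with a 95% interval of 1.07 to 1.21, and it passed the test (limma, Benjamini-Hochberg adjusted p = 0.0460). Dusp5 was thus 1 of 7 members called in this comparison, where 1.05% of all tested genes were called and 0.529% were called higher at Site #3. A separate fit was made of the 13679 genes with an approximate mean of at least 1 CPM, which hold all 7 members. It called 482 genes, 235 of them higher at Site #3. That fit had its own variance trend and adjustment. The share of calls among these genes in the main fit was not computed. From Site #1 to Site #3 the difference was 0.16 ± 0.0536, which did not pass (limma, adjusted p = 0.426), in a comparison that called 0.101% of genes and 0.0485% as higher at Site #3. Against the mean of Sites #1 and #2 together, in a fit of all 17 libraries that shares its rats with the pairs, the difference was 0.17 ± 0.0420 (limma, adjusted p = 0.0683), where 0.768% of genes were called and 0.402% were called higher. From Site #1 to Site #2 it was -0.0288 ± 0.0539 (limma, adjusted p = 0.913), and that comparison called 0.0% of genes. At an unadjusted p under 0.05, 0 of 7 members passed between Sites #1 and #2, beside 6.74% of all genes, and Dusp5 alone passed between Sites #1 and #3 (8.17% of all genes), between Sites #2 and #3 (14.8%) and at Site #3 against the mean of the others (12%).

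The size of the Dusp5 step was steady and its call was not. Over 20 other settings the difference stayed between 0.16 and 0.21, and the adjusted p ran from 0.0368 to 0.125, under 0.05 in 5 of them. The call was lost when any one of 10 of the 12 libraries was left out (adjusted p = 0.0558 to 0.101), among them replicate 1 of Site #3 (0.18, adjusted p = 0.0816), and held without replicate 1 of Site #2 or replicate 4 of Site #3. Calls over all genes also fell in those 10 fits, to between 81 and 148, from 239 in the reported fit. They were 333 and 153 in the 2 fits that kept the call.

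**Figure D2:**
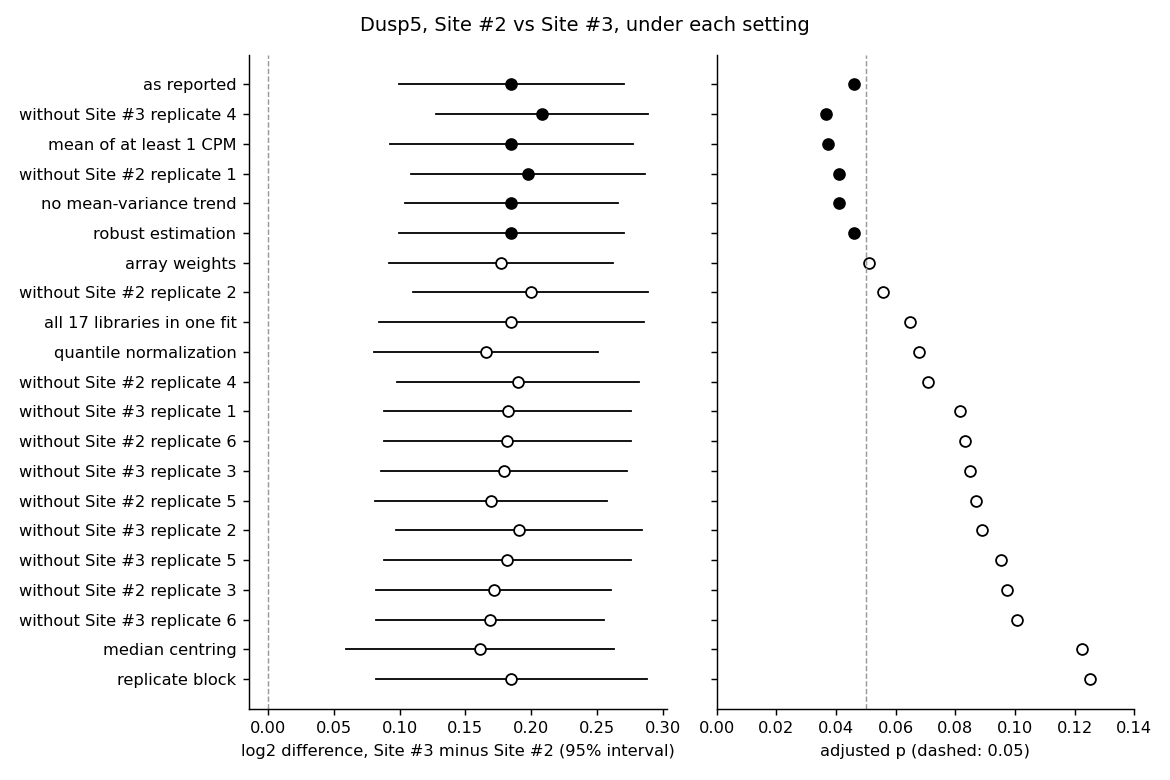
Dusp5 at Site #3 minus Site #2 under the reported fit and 20 other settings. The left panel gives the log2 difference with its 95% interval and the right panel the adjusted p, with filled points under 0.05. All intervals lie above 0, while 5 of the 20 other settings keep the adjusted p under 0.05.

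Levels of markers of other cell types are given beside this comparison. The summed level of 6 microglial markers was 12.71 to 13.03 in the libraries of Site #2 and 13.01 to 13.14 in those of Site #3, with C1qa 0.27 higher (limma, adjusted p = 0.0618) and Csf1r 0.20 higher (limma, adjusted p = 0.0550). That of 4 astrocyte markers was 16.35 to 16.54 and 16.46 to 16.67, and that of 4 vessel markers 11.85 to 12.11 and 12.03 to 12.16. None of these markers was called and none was at 0. The summed level of 3 neuronal markers overlapped, with 15.73 to 15.84 and 15.70 to 15.79. Over the 17 libraries Dusp5 and the microglial sum had a Pearson r of 0.545, and of 0.160 once the site means were taken out. The part of these cells in the Dusp5 difference was not tested.

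The 250 bases before the annotated start of Dusp5 are shown because Dusp5 was the member that was called. They lie at chr1:262543524-262543773 on the + strand of the RefSeq assembly GRCr8, which is not the build of the files. Capitals mark 2 CArG boxes, the motif bound by serum response factor, which takes part in the induction of genes by activity.

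Dusp5: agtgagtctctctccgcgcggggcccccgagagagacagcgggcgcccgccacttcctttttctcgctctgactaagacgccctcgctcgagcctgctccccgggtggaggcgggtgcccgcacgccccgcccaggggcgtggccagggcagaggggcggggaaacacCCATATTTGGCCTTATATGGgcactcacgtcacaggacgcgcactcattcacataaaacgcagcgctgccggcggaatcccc

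The boxes, CCATATTTGG and CCTTATATGG, lie side by side, from base 82 to base 73 and from base 72 to base 63 before the start. The motif reads as itself on the other strand and was counted once. A CArG box occurred in 501 of 33469 RefSeq promoters of the same length (1.497%), and 2 or more in 7 of them (0.0209%). Promoters were found for 6 of the 7 members, with 2 starts for Gpr12, and those of the other 5 held no CArG box. The Dusp5 promoter also held 25 CG pairs, where the median promoter held 5. Searched on both strands, it had 2 matches to GGGCGG, found in 30.5% of promoters, and 1 to TGACG, found in 18.2%. These matches describe letters in a window and were not related to expression here.

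No gene of a list of MAP kinase signalling, which holds genes of the ERK, JNK and p38 branches, passed the test. Of its 12 genes, 0 were called in any of the 4 comparisons, and between Site #2 and Site #3 there were 7 with a higher and 5 with a lower mean, with a median difference of 0.0328 beside 0.000148 over all tested genes. Dusp6, the cytoplasmic phosphatase of ERK, differed by 0.16 ± 0.11 (limma, adjusted p = 0.540), and Dusp1, a phosphatase induced by stress and activity, by 0.0445 ± 0.0851 (limma, adjusted p = 0.828). Of 10 genes induced by activity or stress, 3 of which (Dusp1, Dusp6 and Errfi1) are also in the first list, 0 were called. At an unadjusted p under 0.05, Klf2 (0.17) and Zfp36 (0.12) were higher at Site #3, which is 2 of 10, where 14.8% of all genes passed that mark.

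Rgs14 encodes a regulator of G protein signalling that binds Gi proteins and restrains potentiation at CA2 synapses. Its 5 libraries of Site #1 had 13.13, 12.67, 12.31, 12.50 and 12.64. Site #2 ran from 12.48 through a median of 12.70 to 13.01, and Site #3 from 12.70 through 12.76 to 12.97. Both the highest and the lowest of the 17 values were at Site #1, in replicates 1 and 3, and Site #3 lay inside that range. The SD was 0.30 at Site #1, 0.19 at Site #2 and 0.11 at Site #3 (n = 5, 6 and 6). The difference of Site #3 was 0.15 ± 0.12 from Site #1 (limma, adjusted p = 0.818) and 0.10 ± 0.0811 from Site #2 (limma, adjusted p = 0.620), with 95% intervals of 0.931 to 1.33-fold and 0.949 to 1.21-fold.

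Gpr12 encodes a receptor that signals without a known obligate ligand and raises cyclic AMP through Gs. The values at Site #1 were 9.78, 9.73, 9.36, 9.59 and 9.69. They ran from 9.62 through a median of 9.67 to 9.91 at Site #2 and from 9.47 through 9.53 to 9.88 at Site #3. A single library stood above the rest at Site #2 (replicate 4) and at Site #3 (replicate 3), and a single one stood low at Site #1 (replicate 3). Gpr12 was the member with the lowest difference between Site #2 and Site #3, at -0.11 ± 0.0691 (limma, adjusted p = 0.486). The interval allowed a level 0.833 to 1.03 times that of Site #2.

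No gene of a G protein signalling list set beside Rgs14 and Gpr12 passed the test. Of its 18 genes, among them G protein subunits, receptors, adenylyl cyclases and a phosphodiesterase, 0 were called in any comparison. The median absolute difference between Site #2 and Site #3 was 0.0317 over the list, 0.0285 over all tested genes and 0.10 over the 7 members. The members also spread more between rats of a site, with a median SD of 0.141 beside 0.0666 over all tested genes. Of the 22664 tested genes, 10694 had a mean of 8 or higher, as all members did. Their median SD was 0.0860, and their median absolute difference was not computed. Grk2, a kinase that desensitizes receptors, came closest, with 0.13 ± 0.0306 (limma, adjusted p = 0.0732) and no overlap between the 2 sites, which 1.95% of all genes showed. Gpr6, the closest relative of Gpr12 in the list, differed by 0.0219 ± 0.0716 (limma, adjusted p = 0.917).

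Cacng5 encodes an auxiliary subunit that sets the gating of AMPA receptors, the main receptors of fast excitatory transmission. Site #1 had 9.16, 8.89, 8.83, 8.67 and 8.69. Site #2 ran from 8.46 through a median of 8.71 to 8.86, and Site #3 from 8.42 through 8.89 to 9.08. The lowest of the 17 libraries was at Site #3 and the highest at Site #1, and the other libraries of the 3 sites were interleaved. The differences were -0.14 ± 0.0930 from Site #1 to Site #2 (limma, adjusted p = 0.818) and 0.12 ± 0.11 from Site #2 to Site #3 (limma, adjusted p = 0.652). The interval of the latter was 0.927 to 1.28-fold.

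Among 8 genes of calcium channel subunits and AMPA receptor auxiliary proteins, 0 were called. At an unadjusted p under 0.05, 4 of the 8 were higher at Site #3 than at Site #2, against 14.8% of all genes in either direction. These were the T-type channels Cacna1g (0.18) and Cacna1h (0.17), the AMPA receptor auxiliary subunit Cacng4 (0.0975) and the channel subunit Cacnb3 (0.0875), with a smallest adjusted p of 0.202 (limma). Cacng8, another AMPA receptor auxiliary subunit, had -0.0739 ± 0.0519 (limma, adjusted p = 0.549).

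Adgrl2 encodes latrophilin-2, an adhesion receptor of postsynaptic membranes that binds teneurins across the synapse. At Site #1 it had 10.71, 10.67, 10.79, 10.54 and 10.35. The values of Site #2 ran from 10.47 through a median of 10.86 to 10.99, and those of Site #3 from 10.45 through 10.70 to 10.84. Site #2 held both high and low libraries, and the 3 sites overlapped. The difference of Site #2 from Site #1 was 0.16 ± 0.11 (limma, adjusted p = 0.817), with an interval of 0.949 to 1.32-fold, and that of Site #3 from Site #2 was -0.0862 ± 0.0942 (limma, adjusted p = 0.704). Of 6 adhesion receptors and teneurins, 0 were called. The teneurins, its binding partners, had differences between Site #2 and Site #3 of 0.11 ± 0.0628 for Tenm2 (limma, adjusted p = 0.467) and 0.23 ± 0.12 for Tenm4 (limma, adjusted p = 0.426). Adgra2, an adhesion receptor of blood vessels, had 0.27 ± 0.0803 (limma, adjusted p = 0.130).

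Mpped1 encodes a protein with a metallophosphoesterase domain. The libraries of Site #1 were close together, at 13.53, 13.42, 13.52, 13.53 and 13.45. Site #2 ran from 13.28 through a median of 13.50 to 13.60, and Site #3 from 13.30 through 13.55 to 13.69. At each of these sites a single library lay lowest by a clear gap. The rest of Site #2 overlapped with Site #1, and the other 5 libraries of Site #3 lay above it, the lowest of them at 13.54. The difference of Site #3 was 0.0510 ± 0.0596 from Site #1 (limma, adjusted p = 0.851) and 0.0628 ± 0.0648 from Site #2 (limma, adjusted p = 0.688), with an interval of 0.948 to 1.15-fold for the latter. Without replicate 1 of Site #3 these were 0.10 (limma, adjusted p = 0.557) and 0.11 (limma, adjusted p = 0.385). Without replicate 3 of Site #2, the low library of that site, the difference from Site #2 was 0.0227 (limma, adjusted p = 0.900).

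Ajap1 encodes a membrane protein of adherens junctions. At Site #1 it had 11.07, 10.91, 10.68, 10.76 and 10.90. Site #2 ran from 10.76 through a median of 10.81 to 10.99 and Site #3 from 10.83 through 10.89 to 10.95. As with Rgs14, the highest and lowest libraries were replicates 1 and 3 of Site #1, and Site #3 was the narrowest site, with an SD of 0.0464 (n = 6). The difference between Site #2 and Site #3 was 0.0546 ± 0.0395 (limma, adjusted p = 0.565), with an interval of 0.979 to 1.10-fold. Of 7 genes of cell junctions and polarity, 0 were called, and Celsr1, a cadherin of planar polarity, came closest, with 0.24 ± 0.0587 at Site #3 against the mean of the others (limma, adjusted p = 0.0709).

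No member had libraries without overlap between the sites in any comparison. Libraries without overlap were seen in 0.878% of all genes for Sites #1 and #2, 1.38% for Sites #1 and #3, 1.95% for Sites #2 and #3, and 0.344% for Site #3 against the others. The CA2 markers had a median difference between Site #2 and Site #3 of 0.11 and the CA1 markers of -0.0117, with Dusp5 the 1 of 4 CA2 markers called and 0 of 2 CA1 markers. The 2 CA1 markers had opposite signs (Mpped1 0.0628, Adgrl2 -0.0862), and Gpr12 was a CA2 marker with a lower mean (-0.11). From Site #1 to Site #3 the medians were 0.0675 for the CA2 and 0.0626 for the CA1 markers. Amigo2, a CA2 gene outside the marker list, was 0.17 ± 0.0567 higher at Site #3 than at Site #2 (limma, adjusted p = 0.184), and the difference of Neurod6 was -0.20 ± 0.0696 (limma, adjusted p = 0.193). Against Site #1, Site #3 differed by -0.00763 for Amigo2 and 0.00885 for Neurod6, and Site #2 by -0.17 and 0.21. Of the 8 dentate gyrus markers with an identifier 0 were called, with a median difference of 0.0271 (limma, smallest adjusted p = 0.0618). At an unadjusted p under 0.05, 3 of the 8 were lower and 0 higher at Site #3. Over all 22664 tested genes, 1712 were lower and 1640 higher at that mark, or 14.8% in either direction. Of the 4 dorsal and ventral markers 0 were called, with a median of 0.13 and 0 at an unadjusted p under 0.05.

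**Figure D3:**
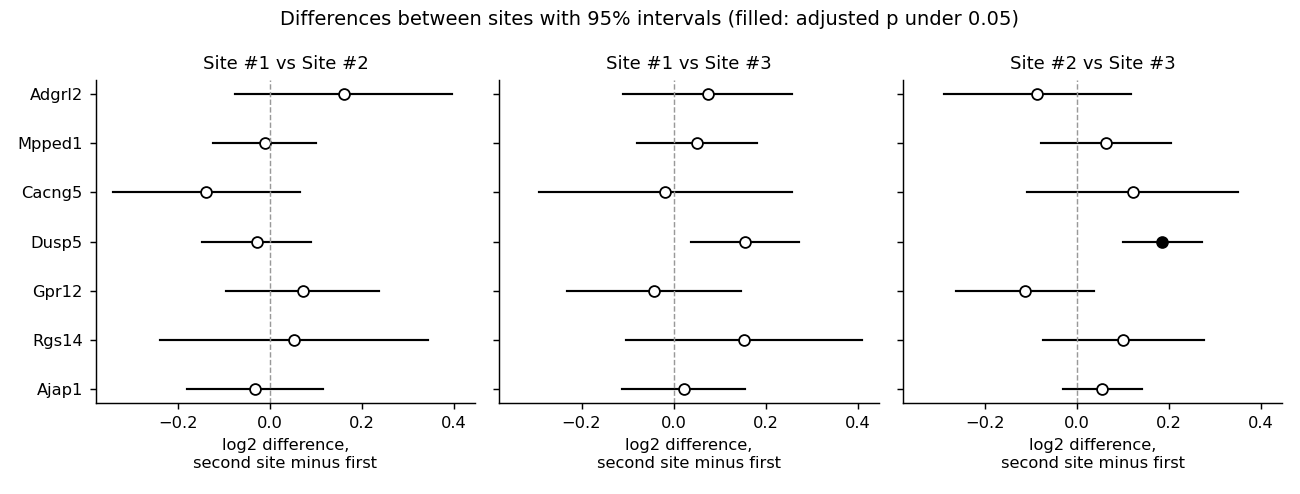
Log2 differences of the 7 members between each pair of sites, second site minus first, with 95% intervals from limma. A filled point has an adjusted p under 0.05, which only Dusp5 between Site #2 and Site #3 has (0.19). The intervals of Rgs14, Cacng5 and Adgrl2 are the widest.

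The members also differed in how much they varied between rats of a site. The SD within sites was 0.21 for Rgs14, 0.20 for Cacng5, 0.18 for Adgrl2, 0.14 for Gpr12, 0.11 for Mpped1, 0.0998 for Ajap1 and 0.0827 for Dusp5. Among those 10694 genes, the share with a smaller SD was 96.2% for Rgs14, 95.6% for Cacng5 and 93.1% for Adgrl2. It was 46.2% for Dusp5. The median SD was 0.141 over the members and 0.0860 over the 10694 genes. As a description of the libraries, replicate 1 of Site #1 had the highest value of 3 members (Cacng5, Rgs14 and Ajap1), and replicate 3 of Site #1 had the lowest value of 4 (Dusp5, Gpr12, Rgs14 and Ajap1). Replicate 3 of Site #3 was above the mean of the 17 libraries for all 7 members, and replicate 3 of Site #2 was below it for 6. The median deviation of the 10694 genes in these 4 libraries was between -0.00579 and 0.00469.

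Rgs14 and Ajap1 varied together across rats, and Gpr12 varied with them less closely. Rgs14 and Gpr12 are CA2 markers and Ajap1 is a CA4 marker. Over the 17 libraries, which share their normalization, Rgs14 and Ajap1 had a Pearson r of 0.894 and a Spearman rho of 0.755. With the site means taken out r was 0.922, and within Sites #1, #2 and #3 it was 0.972, 0.869 and 0.749. Without replicates 1 and 3 of Site #1, the 2 libraries farthest from the median of Rgs14, it was 0.787. Of 454581 pairs among genes with a symbol, 0.0673% had an r as high. Gpr12 had an r of 0.640 with Ajap1 (rho 0.547, 0.802 with site means taken out) and of 0.606 with Rgs14 (rho 0.365, 0.754). Without the 2 libraries farthest from the median of Gpr12 these were 0.415 and 0.330. Of the 454581 pairs, 2.93% had an r as high as 0.640 and 3.81% one as high as 0.606. The pairs among Rgs14, Ajap1 and Gpr12 had the highest r of the 21 pairs of members. Within Sites #1, #2 and #3, r of Gpr12 was 0.918, 0.871 and 0.751 with Ajap1 and 0.851, 0.841 and 0.672 with Rgs14. Over the 21 pairs of members the median r was 0.217, and 16 were positive, or 76.2% against 51.1% of all pairs. The median absolute r was 0.217 over the members and 0.235 over all pairs.

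**Figure D4:**
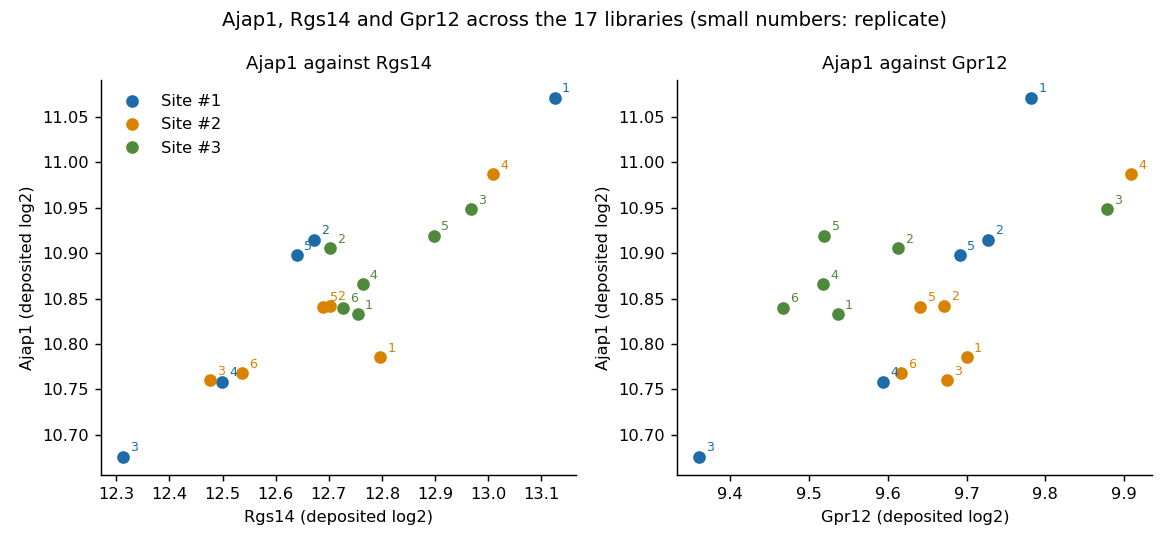
Ajap1 against Rgs14 (left) and against Gpr12 (right) in the 17 libraries, on the deposited log2 scale, with sites in colour and replicate numbers beside the points. Rgs14 and Ajap1 lie along one line at all 3 sites (r = 0.894), while the points against Gpr12 are more scattered (r = 0.640).

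Relations of the same 3 members with Neurod6 and with markers of other cell types are given in the order Rgs14, Ajap1 and Gpr12. With site means taken out, r with Neurod6 was 0.826, 0.796 and 0.692, and before that 0.639, 0.545 and 0.723. With the summed level of the 3 neuronal markers r was 0.440, 0.550 and 0.468 (rho 0.159, 0.336 and 0.532), and 0.717, 0.695 and 0.526 with site means taken out. With that of the 4 vessel markers it was -0.438, -0.315 and -0.559, and -0.649, -0.626 and -0.500 with site means taken out. Dusp6 had an r of 0.796 with Rgs14 (0.772 with site means taken out). For Dusp5, r with Neurod6 was -0.322 and with Dusp6 0.228. Its r with the CA2 gene Amigo2 was 0.589 (0.587 with site means taken out), and with the dentate marker C1ql2 -0.579 (-0.412). Amigo2 had an r of 0.436 with Rgs14, 0.587 with Ajap1, 0.107 with Gpr12 and -0.541 with Adgrl2. The part of cell makeup in these relations was not tested.

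At each site, the library with the lowest Adgrl2 had a high level of markers of fibrous tissue and meninges. The summed level of Col1a1, Fmod and Slc22a6 was 11.66 in replicate 5 of Site #1, 11.31 in replicate 3 of Site #2, and 11.64 and 10.99 in replicates 1 and 2 of Site #3, against 9.53 to 9.99 in the other 13 libraries. Adgrl2 had 10.35, 10.47, 10.45 and 10.71 in these 4 libraries, which were the lowest library of each site and 1 in the middle of Site #3. It had 10.54 to 10.99 in the other 13. Mpped1 had 13.45, 13.28, 13.30 and 13.56 in the 4 and 13.42 to 13.69 in the 13, so that the lowest libraries of Sites #2 and #3 were the same as for Adgrl2. Within the 13, r with the fibrous markers was 0.260 for Adgrl2 and -0.00766 for Mpped1, and the r between the 2 members was -0.0695, against 0.476 over all 17. No pooled r is given, because the 4 libraries lay apart. The pattern was not particular to the CA1 markers. One of the 4 libraries was the lowest at 2 sites for Rgs14 and Ajap1, as for Mpped1. This held at 1 site for Cacng5 and at 0 for Dusp5 and Gpr12. Over the 13 libraries, r with the fibrous markers was -0.388 for Rgs14, -0.402 for Ajap1 and -0.596 for Gpr12. It was -0.234 for Cacng5 and 0.216 for Dusp5. This pattern was looked for after the values were seen, and the part of fibrous tissue in the members was not tested. Rgs14 and Ajap1 had an r of 0.925 within the same 13 libraries.

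**Figure D5:**
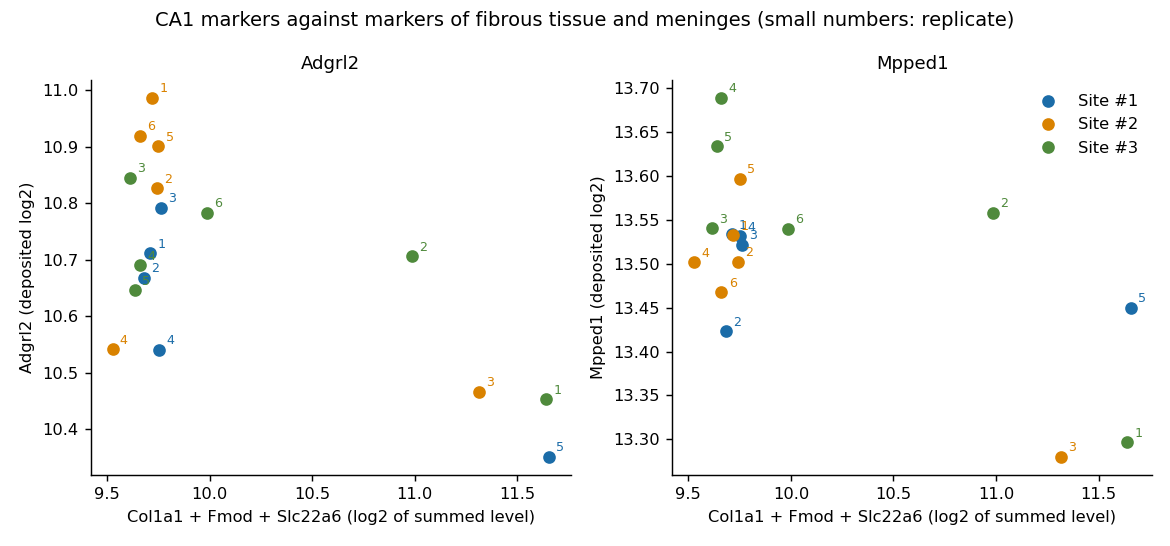
Adgrl2 (left) and Mpped1 (right) against the log2 of the summed level of 3 markers of fibrous tissue and meninges, with sites in colour and replicate numbers beside the points. The 4 libraries above 10.9 on the horizontal axis hold the lowest Adgrl2 value of each site (10.35, 10.47 and 10.45) and the lowest Mpped1 values of Sites #2 and #3 (13.28 and 13.30).

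The genes most like each member were sought among 954 genes with a symbol and a mean of at least 1 CPM, by Pearson r over the 17 libraries, with the members themselves left out, as a description. Outside the members, Rgs14 was most like Gpr155, a membrane protein (0.884), and Inhbb, a subunit of activin (0.816). Ajap1 was most like Bok, a member of the Bcl-2 family (0.805), and Lrrn2, a leucine-rich repeat protein of neurons (0.805). Gpr12 was most like Rem2, a small GTPase that inhibits calcium channels (0.806), and Wasf1, an organizer of actin (0.789). Adgrl2 was most like Gpr161, a receptor of the primary cilium (0.799), and Xpo6, an exporter of actin from the nucleus (0.723). For Dusp5 they were Bag3, a cochaperone induced by stress (0.746), and Ccnk, a cyclin of transcription (0.729), and these fell to 0.606 and 0.460 once the site means were taken out. Mpped1 was most like Cd3e, a T cell receptor subunit (0.796), and Kctd15 (0.632), and Cacng5 most like Trappc10, a protein of vesicle transport (0.658), and Pctp, a lipid transfer protein (0.645).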

How the data were processed

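Hippocampal RNA-Seq was used in 17 libraries, grouped by the site in the sample labels. Per the labels and the methods of the study, the authors aligned trimmed reads by HISAT2 to the rat build rn6 and assigned them to genes by featureCounts; whether counting used strand and which step normalized the values is not given in the sources used here. The authors deposited 1 log2 value per Ensembl gene and library. The values hold negative numbers and keep no counts, and no pseudocount was added.

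Genes at exactly 0 in all libraries were left out. Each pair of sites was fitted by limma (two-sided, lmFit and then eBayes with a trend of variance on mean) over 22664 genes, and Site #3 was set against the mean of the other sites in a fit of 17 libraries. An approximate CPM, 2 raised to the value and scaled to equal sums, served only for filters. Summed levels are the log2 of the sum of the back-transformed values. Alternatives were a replicate block, quantile normalization, median centring, a mean of at least 1 CPM, all libraries in one fit, array weights, robust estimation, no trend and leaving out each library; leaving out the 2 farthest libraries from a relation was chosen after seeing the data. The limma script was tested on simulated data.

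The members and gene lists were chosen with earlier results of these data known. All members were named, with the genes of each list closest to being called or most related to a member, and the 2 genes most like each member. Symbols came from 1798 identifiers paired in the study's gene lists. Promoters came from RefSeq (GRCr8). Tools were limma 3.58.1 in R 4.3.3 and, in Python 3.11.15, pandas 2.3.3, numpy 2.4.6, matplotlib 3.10.9 and scipy 1.17.1.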

Additional observations from a re-analysis of the deposited data

Results flagged for a closer look

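In 3 of the 21 groups of libraries looked at (7 members at 3 sites), 1 library lay farther from its neighbours than Dixon's 95% value allows. Chance gives about 1 in 20 for independent groups. These groups share their libraries, and the flags of Gpr12 and Ajap1 at Site #2 fell on the same library, so no excess can be read from the count. Gpr12 was 9.91 in replicate 4 of Site #2, against 9.62 to 9.70 in the other libraries of that site. Gpr12 was also 9.88 in replicate 3 of Site #3, against 9.47 to 9.61. Ajap1 was 10.99 in replicate 4 of Site #2, against 10.76 to 10.84, and Rgs14 had its highest value of that site, 13.01, in the same library.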

How the results depend on the processing

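Dusp5 stayed higher at Site #3 than at Site #2 in all 20 alternatives. Its call held with a mean of at least 1 CPM, robust estimation and no trend, and was lost, leaving 0 members called, with the replicate block (0.19, limma adjusted p = 0.125), quantile normalization (0.17, 0.0677), median centring (0.16, 0.122), all 17 libraries in one fit (0.19, 0.0647) and array weights (0.18, 0.0512). Leaving out 1 library gave 0.17 to 0.21, with 0 or 1 members called. Against the mean of the other sites, Dusp5 was called, as 1 member, with array weights (0.18, adjusted p = 0.0407) and without replicate 5 of Site #1 (0.18, 0.0484), and the leave-one-out counts ran from 0 to 1. No member was called in the other 2 pairs under any alternative. Differences near 0 changed sign: between Sites #1 and #2, Mpped1 with median centring (0.00711) and leaving out 1 library (-0.0352 to 0.0282), Rgs14 (-0.0327 to 0.17) and Ajap1 (-0.0797 to 0.0191); between Sites #1 and #3, Cacng5 with the replicate block (0.0141) and leaving out 1 library (-0.0665 to 0.0654) and Ajap1 (-0.0251 to 0.0737); and Adgrl2 at Site #3 against the mean (-0.0387 to 0.0409). The cause was not tested. Same-numbered libraries are different rats. The mean r of their deviations was -0.00338, -0.171 and 0.0299 for the 3 pairs, best with its own number in 0, 0 and 1 libraries. Single values reached 0.390 between Sites #1 and #2, and 3 of 6 were over 0.1 between Sites #2 and #3. A handling step shared by number was not tested. Between Sites #2 and #3 the replicate block took the calls over all genes from 239 to 43. Limits: only 7 of 112 markers could be paired with an identifier and analysed, with 5 or 6 rats a site and no counts.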
